A study of Homo sapiens with 16 samples.

Results

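The comparison set endoderm rebuilt with a GATA6 transgene against endoderm made without any depletion, both at day 5 of differentiation. Its members were the 2 rescue arrays and the 2 control arrays of day 5, 4 of the 16 arrays of the study, chosen by their labels. All cells descended from H1 human embryonic stem cells, an established pluripotent line. Rescue cells carried 2 introduced elements: a lentiviral short hairpin RNA against GATA6, and a doxycycline-inducible, FLAG-tagged human GATA6 cDNA resistant to that hairpin. Per the labels they received doxycycline at 60 ng/mL for 96 hours. Depleted cells carried the same hairpin without the cDNA, and 2 arrays of day 5 served for orientation. Control cells carried the empty lentiviral vector, and neither they nor the depleted cells received doxycycline. The hairpin line, from which the rescue line was made, is polyclonal. Differentiation in each group used activin A at 50 ng/mL, with BMP4 at 10 ng/mL and FGF2 at 20 ng/mL during the first days. The lines therefore differed in hairpin, transgene and drug together, and their shares in a difference cannot be told apart. A cDNA driven by doxycycline also lacks the timing of the cell's own gene.

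GATA6 is a zinc finger transcription factor that binds the sequence core from which its family takes its name. Definitive endoderm arises from cells of the primitive streak under Nodal signalling, for which activin A stands in culture. As it forms, the pluripotency factors decline, EOMES and GSC mark the streak stage, and SOX17, FOXA2, CXCR4 and HHEX mark the endoderm. The question put to the rescue cells was how closely their gene expression came to that of endoderm with undisturbed GATA6.

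Levels are log2 values after robust multi-array averaging (RMA), 1 probe set per gene, and differences are rescue minus control with the standard error of the difference. A gene was called at an adjusted p under 0.05 (limma, Benjamini-Hochberg over 18132 genes). The first quartile of the arrays lay between 2.94 and 3.06 log2, and levels near or below it are close to background, so a difference against such a level has no firm size. The rescue arrays were the most alike of the 8 pairs (SD 0.1045 log2 over genes, against 0.2168 for the control pair of day 5 and up to 0.2449 elsewhere). Counted as 1 sample they gave 2085 called genes in place of 4230. Hybridisation controls also set them apart: bioB, a bacterial transcript added to the labelled RNA, read 7.402 and 7.406 log2 on the rescue arrays, against 8.859 and 8.814 on the control arrays. The bioB values of the other groups after day 0 were 8.553 to 9.063. The control arrays of day 0 read 7.893 and 7.767, nearer the rescue arrays. Such an array effect cannot be told apart from the rescue group.

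The GATA6 probe set read lower in rescue than in control cells. It gave 8.43 and 8.31 log2 in rescue cells, 6.37 and 6.62 in depleted cells, and 11.56 and 11.49 in control cells. The rescue values lay between the other groups without overlap. Rescue minus control was -3.15 ± 0.29 (8.9-fold lower, adjusted p = 1.08e-05), and rescue minus depleted was 1.88 ± 0.29 (adjusted p = 0.000168). One probe set measured the gene, and whether it reads the introduced cDNA is not stated, so these values are no measure of total GATA6 in rescue cells. The study places the hairpin target in the 3′ untranslated region of GATA6 and gives this as the reason that the cDNA resists it. The study assayed GATA6 separately by RT-qPCR and reported overexpression in rescue endoderm given doxycycline. Those data were not used here.

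In all, 4230 genes were called, 23.3% of those tested. Of these, 2494 (13.8%) were higher and 1736 (9.57%) lower in rescue cells. Under cyclic loess scaling the split was 1883 higher and 2156 lower. Changes of at least 1 log2 were balanced, with 558 genes higher (3.08%) and 552 lower (3.04%). The median difference over all genes was 0.021. The groups did not overlap for 64.7% of all genes tested, so that order alone is common here. The plot of all genes against their level shows both arms.

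**Figure D1:**
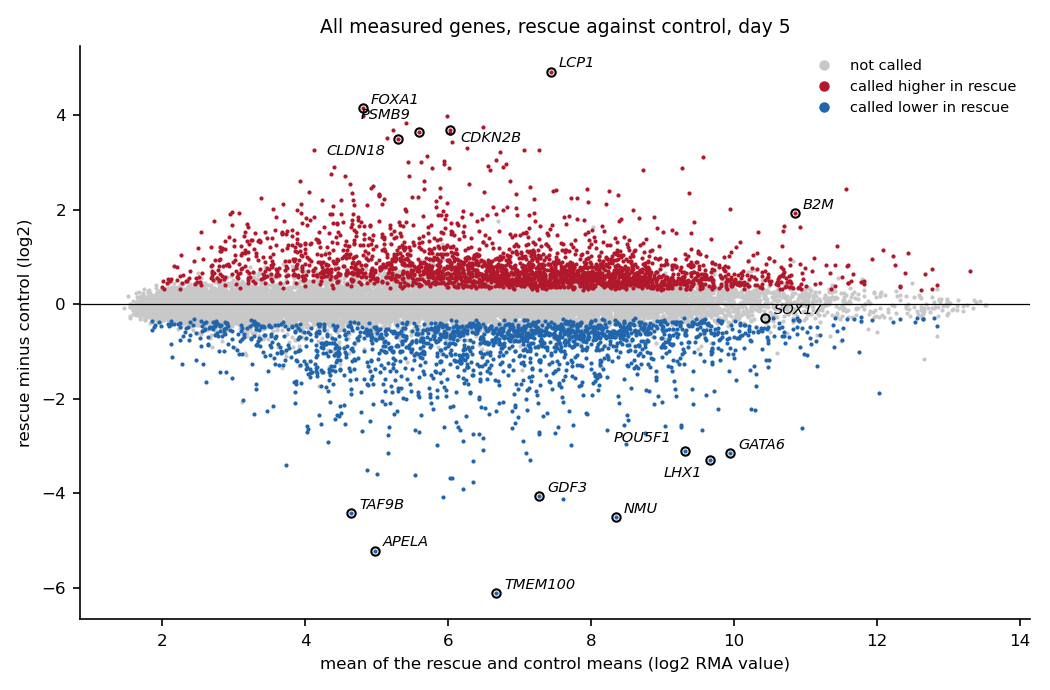
Difference between rescue and control (vertical, log2) against the mean of the 2 group means (horizontal, log2 RMA value) for 18132 genes, with 15 genes labelled. Called genes (adjusted p under 0.05) are coloured: TMEM100 lies lowest at -6.12 and LCP1 highest at 4.93, while SOX17 at -0.29 was not called.

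The steepest falls were of genes with varied functions. TMEM100, a membrane protein known from vascular development and downstream of BMP signals, read 3.69 and 3.54 log2 in rescue cells, 3.64 and 3.58 in depleted cells, and 9.50 and 9.96 in control cells. The difference of -6.12 ± 0.28 (adjusted p = 5.19e-08) was the largest in either direction. Rescue and depleted cells both read near background for it. APELA, which encodes a peptide ligand of the apelin receptor, gave 2.36 and 2.37 in rescue cells, 9.64 and 9.88 in depleted cells, and 7.08 and 8.08 in control cells. Its fall of 5.22 ± 0.52 (adjusted p = 2.09e-05) thus brought it to background in the rescue, while depleted cells lay above control by 2.18 (adjusted p = 0.00563). The receptor gene APLNR read 4.83 and 4.78 in rescue cells against 6.83 and 5.24 in control cells and was not called (adjusted p = 0.128), though it was with the replicate block (adjusted p = 0.0411) and without control replicate 2 (adjusted p = 0.0315).

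NMU, a neuropeptide, was lower by -4.50 ± 0.22, and TAF9B, a subunit of the general transcription machinery, by -4.42 ± 0.20. TAF9B read 2.19 and 2.67 in rescue cells, 7.63 and 7.80 in depleted cells, and 6.84 and 6.85 in control cells, so that only the rescue cells of day 5 were at background. Others among the 15 largest falls were APOA2, an apolipoprotein (-4.12 ± 0.57), ADAMTS18, a matrix protease (-4.09 ± 0.51), GDF3, a TGF-beta family ligand (-4.06 ± 0.18), STAT4 (-3.91 ± 0.22), PAX6 (-3.67 ± 0.23) and SFRP2, a secreted WNT antagonist (-3.61 ± 0.20). The remaining members were AKAP19, VASH2, VSNL1, OR52A1 and CT83, with falls of 3.39 to 3.77.

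The steepest rise was that of LCP1, an actin bundling protein, at 9.94 and 9.85 log2 in rescue cells, 10.95 and 11.12 in depleted cells, and 5.85 and 4.09 in control cells (difference 4.93 ± 0.62, adjusted p = 0.00013). FOXA1, a forkhead factor of endoderm and its derivatives, followed. It read 6.94 and 6.81 in rescue cells, 2.37 and 2.20 in depleted cells, and 2.47 and 2.99 in control cells (4.15 ± 0.17, adjusted p = 2.87e-08). FOXA1 was thus above background only in the rescue among the day 5 groups. HEPH, a copper-dependent ferroxidase, rose by 3.99 ± 0.19, CDKN2B, an inhibitor of the cyclin D kinases, by 3.70 ± 0.21, PSMB9, a subunit of the immunoproteasome, by 3.65 ± 0.15, and IRF1, an interferon-regulated transcription factor, by 3.44 ± 0.19. The tight junction genes CLDN18 (3.50 ± 0.30) and CLDN3 (3.30 ± 0.18) were also among the 15, as were DACH1, MYOT, ADAMTS5, PWWP3B, CRYM and the protocadherin beta cluster genes PCDHB16 and PCDHB17P, with rises of 3.27 to 3.98. CLDN18 read 7.06 and 7.02 in rescue cells, 2.85 and 2.92 in depleted cells, and 2.87 and 4.21 in control cells.

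The factors that drive or mark endoderm were split. SOX17, required for endoderm in mouse, read 10.26 and 10.32 log2 in rescue cells, 6.31 and 6.55 in depleted cells, and 10.66 and 10.51 in control cells. Its difference from control of -0.29 ± 0.19 was not called (adjusted p = 0.316), whereas the depleted cells lay 4.15 below control. FOXA2, a pioneer factor of foregut endoderm, gave 6.16 and 6.20 in rescue cells, 3.84 and 3.78 in depleted cells, and 5.48 and 6.97 in control cells (-0.04 ± 0.38, adjusted p = 0.957). Its rescue values lay between the control replicates, which differed from each other. CER1, a secreted Nodal and BMP antagonist, read 11.73 and 11.70 in rescue cells, 9.43 and 9.06 in depleted cells, and 12.32 and 12.27 in control cells, and was not called (-0.58 ± 0.52, adjusted p = 0.494).

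A further 6 factors that the study discusses were called lower than control, 3 of them with the rescue arrays as 1 sample and 2 without rescue replicate 1. EOMES, the T-box factor of the streak, read 11.24 and 11.25 in rescue cells, 10.03 and 9.93 in depleted cells, and 12.34 and 12.18 in control cells (-1.02 ± 0.20, adjusted p = 0.00254). GSC, a homeobox factor of the anterior streak, read 9.60 and 9.67 in rescue cells, 6.66 and 6.47 in depleted cells, and 10.66 and 11.20 in control cells (-1.30 ± 0.29, adjusted p = 0.00688). FGF17, a growth factor, read 6.79 and 6.77 in rescue cells, 5.03 and 4.84 in depleted cells, and 8.88 and 9.32 in control cells (-2.32 ± 0.42, adjusted p = 0.0016). In each of them the rescue arrays lay between the other groups. The call of GSC was lost without control replicate 2 (adjusted p = 0.0722) and without rescue replicate 1 (adjusted p = 0.0503).

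HHEX, a homeobox factor of foregut progenitors, read 7.87 and 8.07 in rescue cells, 3.68 and 4.01 in depleted cells, and 9.31 and 9.24 in control cells (-1.30 ± 0.36, adjusted p = 0.02). The chemokine receptor CXCR4, used to sort endoderm, read 10.53 and 10.47 in rescue cells, 5.79 and 5.62 in depleted cells, and 11.46 and 12.17 in control cells (-1.31 ± 0.42, adjusted p = 0.0398). GATA4, the close relative of GATA6, read 6.64 and 6.68 in rescue cells, 4.33 and 4.20 in depleted cells, and 7.51 and 7.72 in control cells (-0.96 ± 0.31, adjusted p = 0.0407). These 3 calls were lost with the rescue arrays as 1 sample, at adjusted p of 0.0938 for HHEX, 0.151 for CXCR4 and 0.154 for GATA4.

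**Figure D2:**
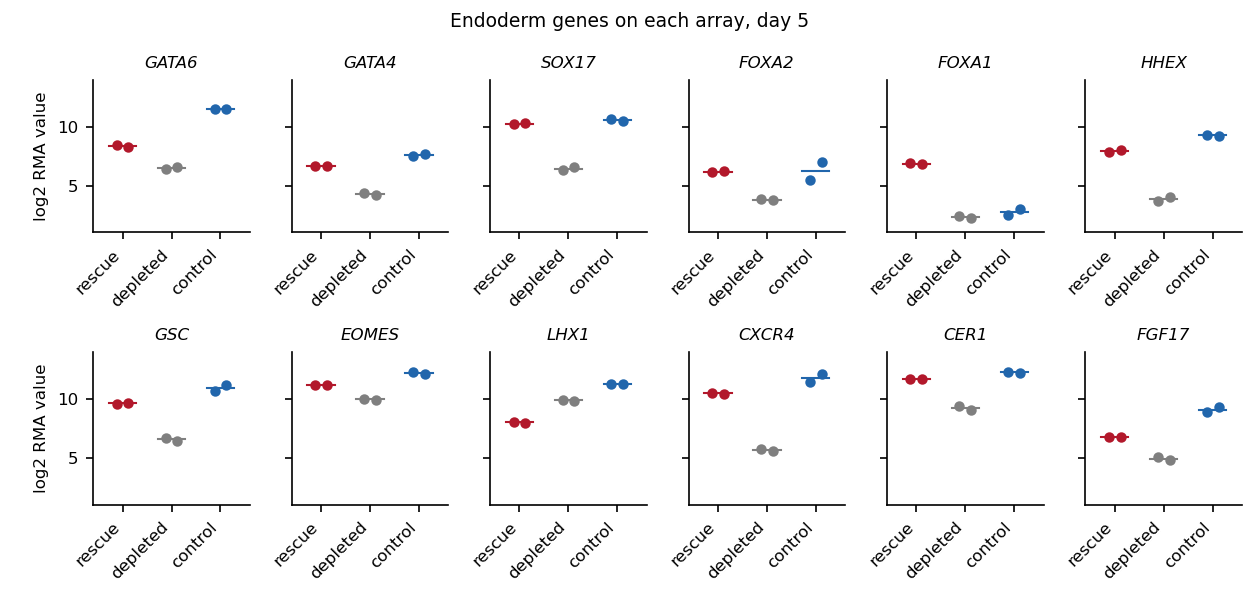
Log2 RMA values (vertical) of 12 endoderm genes on each array of day 5, with rescue, depleted and control cells from left to right, 2 points per group and a line at their mean. Rescue cells lay below control for GATA6 (8.43 and 8.31 against 11.56 and 11.49), below both other groups for LHX1 (8.05 and 7.98), and above both for FOXA1 (6.94 and 6.81).

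Of 17 measured endoderm transcription factors, 9 were called lower and 1, FOXA1, higher (median -0.77, against 0.021 over all genes). LHX1, a LIM homeobox factor of the anterior mesendoderm, showed the largest fall. It read 8.05 and 7.98 in rescue cells, 9.93 and 9.86 in depleted cells, and 11.30 and 11.32 in control cells (-3.30 ± 0.33, adjusted p = 2.19e-05), so the rescue cells held less than either. MIXL1, a homeobox factor of the streak, showed the same order at 5.20 and 5.57 in rescue cells, 6.17 and 5.99 in depleted cells, and 7.07 and 7.03 in control cells. With the rescue arrays as 1 sample, 4 of the 17 were lower and 1 higher, and 3 were lower without rescue replicate 1 or without control replicate 2.

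Of 19 surface and secreted genes of endoderm, 7 were lower and 1 higher (median -0.79). S100A14, a calcium-binding protein, read 8.11 and 8.33 in rescue cells, 4.08 and 3.88 in depleted cells, and 10.20 and 11.55 in control cells (-2.65 ± 0.54). STC1, the hormone stanniocalcin, read 9.64 on both rescue arrays, 7.02 and 6.85 in depleted cells, and 12.07 and 12.47 in control cells (-2.63 ± 0.30). Of 15 genes that the study singled out at day 3 of depletion, 10 were lower and 0 higher, and 6 were lower with the rescue arrays as 1 sample or without rescue replicate 1. The study chose that list on samples of this series, so its direction is no independent evidence. Within the GATA family and its cofactors, GATA3 fell by 2.01 ± 0.23, and ZFPM2, the cofactor FOG2, by 1.73 ± 0.28.

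Larger groups of genes, defined by differences between arrays of other days, gave the breadth of the difference. The spread and the probe set of each gene came from all 16 arrays, so the groups are not fully independent of day 5. The 1085 genes higher by at least 1 log2 in control cells of day 4 than of day 0 were taken as endoderm-enriched. The day 0 arrays stood nearer the rescue arrays in bioB, and whether an array effect enters this set was not tested. Of them 359 (33.1%) were lower, 156 (14.4%) higher and 570 not called in rescue cells, with a median difference of -0.29 and quartiles of -0.86 and 0.27. In depleted cells of day 5, 876 of these genes were lower and 31 higher (median -1.33), against 16% lower and 16.5% higher over all genes. With the rescue arrays as 1 sample, 223 were lower and 75 higher than control.

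The 828 genes lower on depletion at day 4 had a median of -0.35 in rescue cells, with 299 (36.1%) lower and 96 (11.6%) higher, against a median of -1.76 in depleted cells. The 966 genes higher on depletion at day 4 had a median of 0.11 in rescue cells, with 252 (26.1%) higher and 176 (18.2%) lower, against 1.34 in depleted cells. The 2 comparisons share the control arrays, and over all genes 9.57% were lower and 13.8% higher in rescue cells. The distributions show rescue cells centred close to control with a longer tail of lower values among the genes that endoderm gains.

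**Figure D3:**
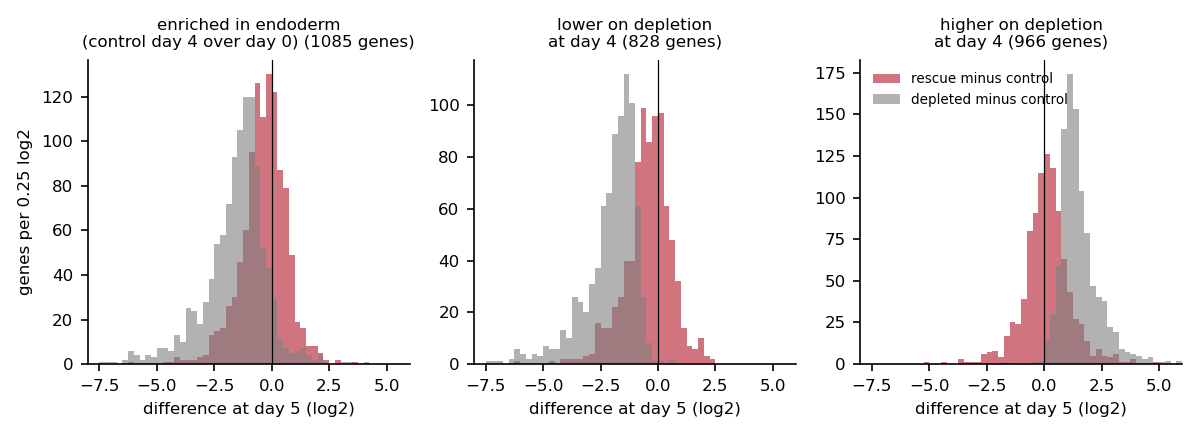
Number of genes (vertical, per 0.25 log2) by difference from control at day 5 (horizontal, log2), for rescue cells in red and depleted cells in grey. The 3 groups of genes were defined by differences between arrays of other days. The medians of rescue and depleted cells were -0.29 and -1.33 for endoderm-enriched genes, -0.35 and -1.76 for genes lower on depletion, and 0.11 and 1.34 for genes higher on depletion.

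Pluripotency genes were lower in rescue than in control cells, with 12 of 19 called lower, 0 higher, and a median of -0.86. POU5F1 (OCT4) read 7.73 and 7.79 log2 in rescue cells, 12.70 and 12.69 in depleted cells, and 10.68 and 11.05 in control cells (-3.10 ± 0.17, adjusted p = 1.4e-07). NANOG read 6.14 and 6.13 in rescue cells, 9.82 and 9.92 in depleted cells, and 8.83 and 8.89 in control cells (-2.72 ± 0.16, adjusted p = 2.18e-07). SOX2 read 5.88 and 5.68 in rescue cells, 9.58 and 9.59 in depleted cells, and 7.89 and 8.44 in control cells (-2.39 ± 0.23, adjusted p = 1.64e-05). The 3 core factors thus shared 1 order, lowest in rescue and highest in depleted cells, with no overlap between groups.

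Among the other called members, ZFP42 (REX1) fell by 3.15 ± 0.15, DPPA2 by 2.76 ± 0.21, FGF2, the growth factor that maintains these cells, by 2.66 ± 0.21, PRDM14 by 2.32 ± 0.40, and DNMT3B, a DNA methyltransferase, by 1.80 ± 0.13. LIN28A (-0.77 ± 0.12) and DPPA4 (-0.63 ± 0.15) fell less, and ZSCAN10 was lower by -0.86 ± 0.27. With the rescue arrays as 1 sample 10 of the 19 were lower. In this bulk culture, fewer cells that express a gene and less RNA per cell cannot be told apart.

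Genes of the primitive streak followed, with 9 of 16 lower and 0 higher (median -0.80), but without rescue replicate 1 only 3 were lower and without either control array 5. TBXT (brachyury) read 3.38 and 3.18 in rescue cells, 7.89 and 7.96 in depleted cells, and 4.72 and 4.26 in control cells. Its fall of 1.21 ± 0.37 (adjusted p = 0.0338) started from a control level not far above background, and with the rescue arrays as 1 sample it was not called (adjusted p = 0.133). Of 16 Nodal pathway genes, 6 were lower and 1 higher, with 2 or 3 lower when any 1 of the 4 arrays was left out. LEFTY1, a feedback inhibitor of Nodal, read 11.08 on both rescue arrays, 11.43 and 11.14 in depleted cells, and 12.93 and 13.01 in control cells (-1.89 ± 0.31). NODAL itself was lower by -1.06 ± 0.35 (adjusted p = 0.0459, and 0.165 with the rescue arrays as 1 sample). LEFTY2 read 12.07 and 12.09 in rescue cells and 13.17 and 13.31 in control cells and was not called (adjusted p = 0.0513). It was called with the replicate block (adjusted p = 0.0368), with only the 4 arrays (0.00265), with the mean of all probe sets (0.0215) and without low genes (0.0469).

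The WNT pathway had 9 of 33 genes lower and 4 higher. Counting the rescue arrays as 1 sample left 7 lower and 1 higher, 2 were higher without either rescue array or without control replicate 2, and 6 were lower without rescue replicate 1 or control replicate 1. Beside SFRP2, the secreted antagonist SFRP1 fell by 2.23 ± 0.35, the R-spondin receptors LGR4 by 2.27 ± 0.19 and LGR5 by 1.45 ± 0.25, and the target gene AXIN2 by 1.32 ± 0.29. The other falls were the receptor FZD7 (-1.07 ± 0.20), the ligand WNT5A (-1.44 ± 0.40) and the target factors SP5 (-0.82 ± 0.19) and SP8 (-1.27 ± 0.29). LEF1, a nuclear effector of the pathway, was higher at 5.08 and 5.00 in rescue cells, 5.30 and 5.58 in depleted cells, and 3.47 and 2.92 in control cells (1.85 ± 0.33), but only 1 of its 9 probe sets was called. The other rises were APCDD1 (0.91 ± 0.23), WNT11 (0.70 ± 0.19) and RSPO2 (0.48 ± 0.15), the last at background in both groups. WNT5A, SP5 and these 3 rises lost their calls with the rescue arrays as 1 sample, at adjusted p of 0.053 to 0.0892.

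BMP pathway genes moved both ways, 8 of 19 lower and 4 higher, with 4 lower without rescue replicate 2 and 5 with the rescue arrays as 1 sample or without rescue replicate 1. The ligand BMP4 fell by 2.12 ± 0.32, the receptor BMPR2 by 2.07 ± 0.24 (1 of 3 probe sets called) and the target ID1 by 1.13 ± 0.28 (adjusted p = 0.0687 with the rescue arrays as 1 sample), while the receptor BMPR1B rose by 2.20 ± 0.28 and the target ID2 by 2.24 ± 0.26. BMPR2 read 7.94 and 7.98 in rescue cells, 7.80 and 7.62 in depleted cells, and 9.95 and 10.12 in control cells. ID2 read 8.34 and 8.29 in rescue cells, 9.04 and 9.25 in depleted cells, and 6.23 and 5.93 in control cells. Both lines with the hairpin therefore lay on the same side of control for these genes. Of 21 FGF pathway genes 6 were lower and 1 higher, with FGFR2 at -1.57 ± 0.19 and the inhibitor SPRY4 at -1.09 ± 0.25.

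Markers of other lineages gave no common direction except for extraembryonic endoderm, the yolk sac relative of definitive endoderm. Of its 25 measured genes 12 were lower and 0 higher (median -0.28), and their mean level was 6.16 and 6.19 in rescue cells against 6.85 and 6.84 in control cells. APOA2 read 5.57 and 5.51 in rescue cells, 2.49 and 2.40 in depleted cells, and 9.27 and 10.05 in control cells. APOA1, its partner in lipoproteins, fell by 2.38 ± 0.37, PDGFRA by 2.35 ± 0.36 (1 of 4 probe sets called), and AFP by 1.26 ± 0.31 to background. In depleted cells AFP lay above control by 3.703, whereas APOA1 lay below it (-3.626). AFP was also among the genes higher on depletion at day 4. Basement membrane genes of the list also fell: COL4A1 by 1.06 ± 0.11, LAMA1 by 0.95 ± 0.10, COL4A2 by 0.59 ± 0.12 and NID2 by 0.98 ± 0.19. BMP2, IHH, APOC1 and APOE were the other called members, with falls of 0.50 to 1.18. The calls of AFP, APOE and BMP2 were lost with the rescue arrays as 1 sample. That of APOE was also lost when any 1 of the 4 arrays was left out. With the mean of all probe sets AFP was not called (-0.755, adjusted p = 0.0735). TTR and APOB, classical markers of the yolk sac, lay between 2.05 and 4.14 on these 4 arrays.

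The mean level of 23 mesoderm and cardiac genes was 4.75 and 4.78 in rescue cells against 4.79 and 4.67 in control cells, with 3 genes higher and 3 lower. TWIST1 rose by 2.71 ± 0.49 and the cardiac actin ACTC1 by 3.11 ± 0.49, while KDR, a receptor of vascular precursors, fell by 1.97 ± 0.25. Of 16 neuroectoderm genes 1 was higher and 2 lower, PAX6 among them at 4.07 and 4.30 in rescue cells, 4.37 and 3.63 in depleted cells, and 7.77 and 7.94 in control cells. Of 14 trophoblast and amnion genes 1 was higher, TFAP2C (2.98 ± 0.34), and 1 lower, GATA3. Of 16 fibroblast and stromal genes 5 were higher, including COL1A2 (1.99 ± 0.24) and TAGLN (1.66 ± 0.32), and 2 lower, THY1 (-2.23 ± 0.22) and S100A4 (-2.18 ± 0.18), with 3 higher without either rescue array or without control replicate 2. The fibroblast genes DCN and FAP lay between 1.79 and 2.72 on these arrays. Among 16 serum protein genes of hepatic and foregut cells only HP was called, at 2.87 and 2.84 in rescue cells against 5.37 and 6.17 in control cells. Of 19 gut patterning factors 3 were higher and 2 lower, with SOX9 at 1.34 ± 0.26 and HOXD1 at 1.63 ± 0.18, and of 27 HOX genes 1 was higher and 1 lower.

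The list with the highest median difference was that of antigen presentation on class I molecules, the pathway that cuts proteins to peptides, carries them into the endoplasmic reticulum and loads them for display. This list was drawn up after some of its values had been seen. Of 22 measured genes, 14 were higher and 0 lower (median 1.49), and the counts were the same with the rescue arrays as 1 sample. B2M, the common light chain, read 11.78 and 11.84 log2 in rescue cells, 10.06 and 10.05 in depleted cells, and 9.89 and 9.88 in control cells (1.93 ± 0.10, 3.8-fold, adjusted p = 9.72e-08), with 8 of 8 probe sets called. Only the rescue arrays stood apart.

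TAP1, one chain of the peptide transporter, read 8.30 and 8.36 in rescue cells, 6.16 and 6.15 in depleted cells, and 4.77 and 5.46 in control cells (3.22 ± 0.18). PSMB9 read 7.46 and 7.36 in rescue cells, 3.83 and 3.95 in depleted cells, and 3.78 and 3.75 in control cells. NLRC5, the activator of class I genes, read 5.89 and 5.59 in rescue cells, 3.35 and 3.09 in depleted cells, and 2.93 and 3.04 in control cells (2.75 ± 0.13). IRF1 read 7.79 and 7.76 in rescue cells, 4.79 and 4.66 in depleted cells, and 4.34 and 4.33 in control cells. Control and depleted cells held IRF1, PSMB9 and NLRC5 at similar low levels, far below the rescue.

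PSMB8 rose by 3.04 ± 0.23, the loading factor TAPBP by 2.27 ± 0.21 (1 of 5 probe sets called), HLA-F by 1.79 ± 0.16, TAP2 by 1.73 ± 0.14, ERAP2 by 1.69 ± 0.20, HLA-B by 1.57 ± 0.20, HLA-E by 1.41 ± 0.13, PSME1 by 0.72 ± 0.12 and PSME2 by 0.65 ± 0.11. HLA genes are near-identical in parts, so their probe sets may share signal. Those not called included PSMB10 (0.25 ± 0.13), HLA-C (0.41 ± 0.17) and the general chaperones CALR, CANX and PDIA3 (-0.35 to 0.11). Of 8 class II genes 1 was higher, HLA-DMB (0.54 ± 0.13), and CIITA, their activator, was not called (0.14 ± 0.16).

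Interferon-regulated factors read a short paired element, and the promoters of this group were examined for it. The sequences are from RefSeq on GRCh38.p14, 300 bases each that span the start of the gene, and were searched on both strands for GAAANNGAAA. This motif was in 3.65% of all 27305 promoters and in 9 of 19 matched class I genes (47.4%). Among the 9 was PSMB10, which was not called. Whether the motif goes with the change in level was not tested. A match is a description of letters, not of binding. The promoters of TAP1 and B2M are shown because they hold the element, with the matches in capitals. PSMB9, which rose more than either, has no match in its window, chr6:32853942-32854241 on the plus strand. That window overlaps the upstream end of the TAP1 window. The TAP1 matches thus lie between the starts of these neighbouring genes, just outside the bases searched for PSMB9. In TAP1 the matches are read on the strand opposite to the one printed.

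TAP1 promoter, chr6:32853655-32853954, minus strand: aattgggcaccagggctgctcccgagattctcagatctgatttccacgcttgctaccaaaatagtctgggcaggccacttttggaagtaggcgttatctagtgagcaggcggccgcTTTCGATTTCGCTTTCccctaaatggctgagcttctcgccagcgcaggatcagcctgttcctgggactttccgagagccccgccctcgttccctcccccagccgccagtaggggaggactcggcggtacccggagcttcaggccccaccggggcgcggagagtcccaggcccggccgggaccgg

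B2M promoter, chr15:44711267-44711566, plus strand: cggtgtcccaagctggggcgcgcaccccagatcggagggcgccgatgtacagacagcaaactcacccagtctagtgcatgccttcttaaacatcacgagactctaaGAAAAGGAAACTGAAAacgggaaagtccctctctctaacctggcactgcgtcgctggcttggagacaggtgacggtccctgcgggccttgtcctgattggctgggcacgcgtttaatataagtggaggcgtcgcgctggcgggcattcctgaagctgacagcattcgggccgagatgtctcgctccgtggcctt

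In each of them 2 matches overlap, starting 134 bases before the gene start in TAP1 and 144 before it in B2M. IRF1 carried no such match in this window. It held the palindrome TTCNNNGAA, the element bound by STAT factors, capitalised in its sequence, 124 bases before its start. This second motif was in 7.88% of all promoters and in IRF1 alone among the 19 class I genes.

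IRF1 promoter, chr5:132490724-132491023, minus strand: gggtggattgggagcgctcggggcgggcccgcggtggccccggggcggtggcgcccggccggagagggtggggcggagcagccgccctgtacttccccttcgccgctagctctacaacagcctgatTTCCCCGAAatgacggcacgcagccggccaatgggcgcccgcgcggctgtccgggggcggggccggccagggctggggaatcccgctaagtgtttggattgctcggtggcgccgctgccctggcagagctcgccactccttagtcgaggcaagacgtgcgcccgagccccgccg

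Interferon-induced genes at large rose less evenly, with 10 of 21 higher and 1 lower (median 0.77). B2M and IRF1 are on both this list and that of class I antigen presentation. IRF9, a partner of the STAT factors, read 8.08 and 8.06 in rescue cells, 5.86 and 5.78 in depleted cells, and 6.06 and 6.32 in control cells (1.88 ± 0.24). IFI44, IFI44L and OAS2, typical antiviral genes chosen here after their values were seen, were not called (-0.10 to 0.14). GAAANNGAAA was in 12 of 17 matched promoters of the interferon list (70.6%), called or not, and B2M was counted here as well as for class I.

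**Figure D4:**
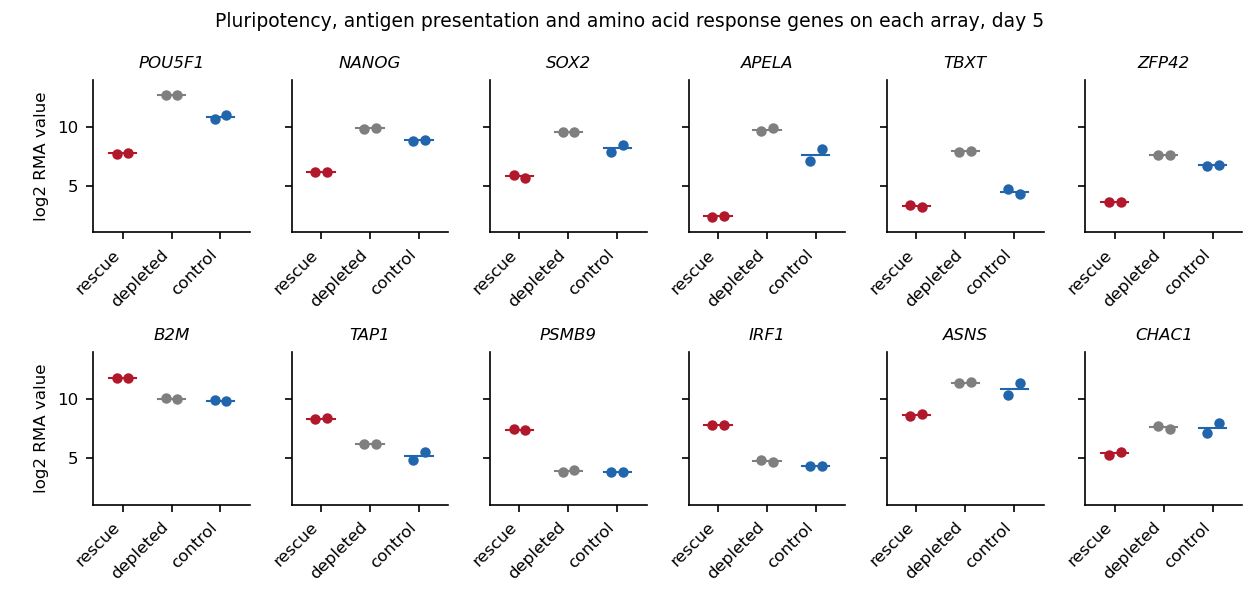
Log2 RMA values (vertical) of 12 genes on each array of day 5, with rescue, depleted and control cells from left to right, 2 points per group and a line at their mean. Rescue cells were lowest for POU5F1, NANOG, SOX2, APELA, TBXT, ZFP42, ASNS and CHAC1 and highest for B2M (11.78 and 11.84), TAP1, PSMB9 and IRF1.

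Genes under ATF4, which cells raise when amino acids run short or proteins misfold, were lower. Of 27 members 15 were called lower and 0 higher (median -0.76), and with the rescue arrays as 1 sample 10 were lower. Without control replicate 2, 6 were lower and 1 higher, and without rescue replicate 1, 9 were lower. ASNS, asparagine synthetase, read 8.60 and 8.72 in rescue cells, 11.38 and 11.44 in depleted cells, and 10.39 and 11.38 in control cells (-2.23 ± 0.29, adjusted p = 0.000147). CHAC1, which breaks down glutathione, read 5.24 and 5.51 in rescue cells, 7.72 and 7.45 in depleted cells, and 7.09 and 7.99 in control cells (-2.17 ± 0.48, adjusted p = 0.00629). The control arrays themselves differed, but neither reached the rescue values.

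Many called members supply amino acids. The enzymes of serine synthesis PHGDH (-1.94 ± 0.22), PSAT1 (-1.79 ± 0.20) and PSPH (-0.75 ± 0.25) fell together with the mitochondrial folate enzymes MTHFD2 (-1.60 ± 0.20) and SHMT2 (-0.81 ± 0.19). The transporters SLC7A11 (-1.92 ± 0.45), SLC7A5 (-1.06 ± 0.23) and SLC3A2 (-0.55 ± 0.16) fell as well. STC2 (-2.67 ± 0.37), DDIT4 (-1.92 ± 0.42), PCK2 (-1.36 ± 0.28), VLDLR (-0.86 ± 0.27) and ATF4 itself (-0.76 ± 0.17) completed the called members. Once the rescue arrays counted as 1 sample, SLC7A11 (adjusted p = 0.0532), SHMT2 (0.0566), SLC3A2 (0.121), VLDLR (0.146) and PSPH (0.163) were not called. Without control replicate 2 these 5 and ATF4 (0.0534), DDIT4 (0.0656), SLC7A5 (0.0678) and CHAC1 (0.069) were not called, and CHAC1 missed the threshold without rescue replicate 1 too (0.0534). The stress-induced factor DDIT3 (CHOP) and the pseudokinase TRIB3 were not called, with DDIT3 at 6.01 and 5.93 in rescue cells against 4.91 and 5.91 in control cells, and TRIB3 at 7.63 and 7.54 against 6.86 and 7.75. Of 16 endoplasmic reticulum chaperones 0 were higher and 2 lower, and 0 were lower with the rescue arrays as 1 sample.

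The composite element read by ATF4 was searched as TGATGNAA on both strands. It was in 3.67% of all promoters and in 5 of 22 matched members (22.7%), of which ASNS and CHAC1 fell by more than 2 log2. They are shown with the match in capitals, on the opposite strand in CHAC1.

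ASNS promoter, chr7:97872359-97872658, minus strand: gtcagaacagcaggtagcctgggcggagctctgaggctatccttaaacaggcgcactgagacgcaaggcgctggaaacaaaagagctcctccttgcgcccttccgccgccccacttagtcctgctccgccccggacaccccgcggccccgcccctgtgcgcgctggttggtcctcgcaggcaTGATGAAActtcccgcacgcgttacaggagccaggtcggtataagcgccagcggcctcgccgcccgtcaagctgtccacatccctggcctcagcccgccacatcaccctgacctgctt

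CHAC1 promoter, chr15:40953221-40953520, plus strand: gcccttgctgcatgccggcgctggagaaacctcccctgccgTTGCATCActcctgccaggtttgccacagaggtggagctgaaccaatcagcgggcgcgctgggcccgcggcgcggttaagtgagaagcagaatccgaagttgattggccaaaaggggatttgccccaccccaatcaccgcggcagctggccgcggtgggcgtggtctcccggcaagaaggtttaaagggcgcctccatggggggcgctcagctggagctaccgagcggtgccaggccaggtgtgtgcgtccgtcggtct

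The match starts 68 bases before the gene start in ASNS and 209 before it in CHAC1. The others with a match were SLC3A2, called lower, and ATF3 and FGF21, not called. For comparison AGATAA, a core that GATA factors bind, was in 10.5% of all promoters, in 1 of 11 matched among the 15 largest rises (CLDN18) and in 2 of 13 among the 15 largest falls (APOA2 and GDF3).

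Glycolysis and the response to low oxygen rose together, with 17 of 26 genes higher and 0 lower (median 0.75), and 11 higher with the rescue arrays as 1 sample or without rescue replicate 2. LDHA, which makes lactate, read 12.98 and 12.97 in rescue cells, 11.70 and 11.62 in depleted cells, and 11.97 and 11.82 in control cells (1.08 ± 0.11, adjusted p = 3.18e-05). HK2, the inducible hexokinase, rose by 1.57 ± 0.24, TPI1 by 0.97 ± 0.12, and the peptide hormone ADM by 1.63 ± 0.27. Of 14 housekeeping genes 5 were higher and 0 lower, among them PGK1 (0.61 ± 0.11) and B2M, which belong to groups above. Respiratory chain genes were 4 higher and 1 lower of 18, and mitochondrial ribosome genes 3 higher and 1 lower of 24. Of 9 metallothioneins 4 were lower, led by MT1H (-2.09 ± 0.33) and MT1G (-1.90 ± 0.30), and of 15 cholesterol synthesis genes 4 were lower and 1 higher. When the rescue arrays counted as 1 sample, 2 respiratory chain genes and 1 of the mitochondrial ribosome were higher, 0 of either were lower, and 2 cholesterol synthesis genes were lower.

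Proliferation genes were lower on balance, with 13 of 27 cell cycle genes lower and 3 higher (median -0.43). TOP2A, a topoisomerase of dividing cells, read 8.67 and 8.65 in rescue cells, 9.87 and 9.83 in depleted cells, and 9.88 and 9.98 in control cells (-1.27 ± 0.19, adjusted p = 0.000459). With the rescue arrays as 1 sample 6 of the 27 were lower and 2 higher, and 5 were lower without rescue replicate 2 or without control replicate 1. The higher genes were CCND2, a cyclin (1.54 ± 0.22), and the inhibitors CDKN2A (3.14 ± 0.25) and CDKN1C (0.80 ± 0.22). CDKN2A, which encodes p16, read 7.26 and 7.29 in rescue cells, 7.70 and 7.80 in depleted cells, and 4.50 and 3.77 in control cells, with 1 of 3 probe sets called. Its neighbour CDKN2B read 7.82 and 7.93 in rescue cells, 4.20 and 4.83 in depleted cells, and 4.01 and 4.35 in control cells, with 3 of 3 called. The pair thus differed in the depleted cells, where only CDKN2A was high. Of 21 p53 and apoptosis genes 4 were higher and 1 lower, with CDKN1A not called (0.59 ± 0.38), and 1 was higher without either rescue array or with these as 1 sample.

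Genes of adhesion and of the transition between epithelial and mesenchymal state rose on both sides of that transition, 10 of 22 higher and 1 lower (median 0.67), with 5 higher without rescue replicate 2. ZEB2 (1.50 ± 0.31) and TWIST1, which mark the mesenchymal side, were higher, as was CLDN18 on the epithelial side, and CDH6 rose by 1.44 ± 0.18. Claudins as a family did not rise: 3 of 21 were higher (14.3%, against 13.8% over all genes) and 2 lower, with a median of 0.17. Of 19 basement membrane and collagen genes 6 were lower and 3 higher, with TNC at -1.70 ± 0.33 and NID1 at -1.46 ± 0.13, and 0 were higher with the rescue arrays as 1 sample.

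**Figure D5:**
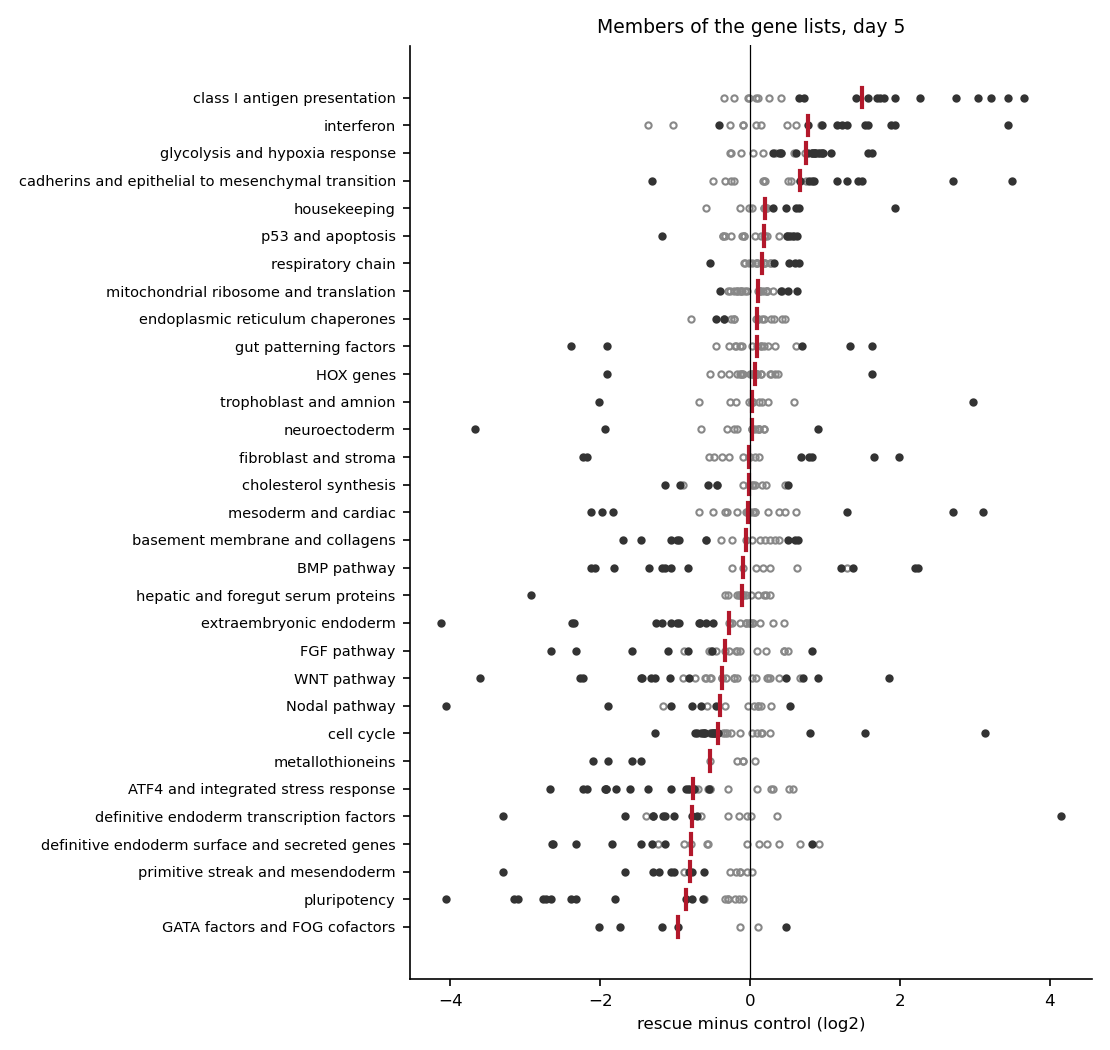
Difference between rescue and control (horizontal, log2) for each measured member of 31 gene lists (vertical, ordered by median). Filled points were called, open points not, and red bars mark medians, which run from -0.96 for GATA factors to 1.49 for class I antigen presentation. The class I list was drawn up after some of its values had been seen, and the other lists made so are not shown. Lists not shown had medians from -1.59 (day 3 genes the study names) to 0.69 (kinase inhibitors), with the apelin system at -1.23.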

How the data were processed

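RNA of 16 samples was hybridised to 1 PrimeView array each (3′ IVT labelling, per the labels). The authors deposited log2 values per probe set after RMA in Partek, whose version is not given in the sources used here. Of 49395 probe sets, 44994 named 1 gene, and those that named several (1832) or none (2569) were left out, with 102 controls. Identifiers of 44961 of the 44988 used were found in RefSeq, which changed 0 symbols. Each of 18132 genes was represented by 1 probe set, that of highest average level across the 16 arrays. limma 3.58.1 in R 4.3.3 fitted 1 mean per group to the 16 arrays (8 residual and 4.58 prior degrees of freedom, median standard error 0.152 log2). Tests were two-sided and adjusted by Benjamini-Hochberg over all genes. The fit was tested on simulated data.

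Named genes were GATA6, the factors the study discusses, the 15 largest rises and 15 largest falls among genes called with groups apart, up to 4 members per list by size of difference, and called pluripotency, WNT, extraembryonic endoderm and stress response genes. Other named genes, and the lists for class I and II antigen presentation, interferon receptors, kinase inhibitors, claudins, contractile genes and the apelin system, were chosen after their values were seen. Members and lists were chosen with earlier results of these data known. Lists are described by counts and medians, without a test. Counts from the main fit are to be read beside 13.8% higher and 9.57% lower over all genes. With an array left out, or with the rescue arrays counted together, fewer genes were called over all genes. Counts from these fits, for lists and larger groups, are to be read beside their own totals over all genes, given below. A smaller count there does not by itself show that a pattern was lost. Genes on the lists that no single-gene probe set measured were not analysed here. Chromosome medians stand in for arms, whose limits were not used here. The study describes replicates as independent differentiations. The number of arrays limits precision. Labels and the study's text give different doxycycline doses, and that of the labels is used. Alternatives were other summaries, filters, scaling, moderation, models, a replicate block, leaving out arrays, and the study's own rule. Figures used matplotlib 3.10.9.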

Additional observations from a re-analysis of the deposited data

How the results depend on the processing

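The count of called genes was 4230, and it lay between 4002 and 4428 with the mean of all probe sets, without genes below the 25th percentile, with cyclic loess, with trended and robust moderation, with only the 4 arrays and with the replicate block (4313). With the rescue arrays as 1 sample it was 2085 (1194 higher and 891 lower, against 2494 and 1736), with 223 endoderm-enriched genes lower and 75 higher (against 359 and 156) and 192 genes lower on depletion at day 4 that were also lower in the rescue (against 299). With the mean of all probe sets 101 endoderm-enriched genes were higher. By the study's own rule, which sets limits on a plain p and on a z-score over all probe sets, 563 genes passed. Leaving out each of the 4 arrays in turn gave 2187 to 3352 called genes (1241 to 1996 higher, 925 to 1356 lower), 227 to 284 endoderm-enriched genes lower and 75 to 131 higher, and 193 to 242 of the genes lower on depletion. The lowest counts came without either rescue array, and without control replicate 2 the count was 2716. The lone array was then assumed to vary like the other groups. GATA6 stayed called in these alternatives (-3.27 to -3.10). Of the 177 other named genes 116 kept their side of the threshold in each alternative that measured them, 48 lost the call in at least 1, 13 gained one, and 0 called differences changed sign. Replicate numbers were not used to pair samples: deviations of same-numbered arrays correlated at -0.022 over genes between rescue and control of day 5, and between -0.068 and 0.253 over all pairs of groups, highest for control day 3 with day 4 (0.253) and day 4 with day 5 (0.226). The block moved no count by over 1.5 times. For genes near background, signal limits the size of a difference.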

Other observations

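Contractile genes, a list drawn up after values were seen, were higher in rescue cells in 11 of 25 cases and lower in 1 (median 0.61). That is 44% higher and 4% lower, against 13.8% and 9.57% over all genes. The list includes LCP1, the steepest rise of the whole comparison, so its counts are no independent evidence. The natriuretic peptide gene NPPA read 7.29 and 7.63 log2 in rescue cells, 4.23 and 3.79 in depleted cells, and 4.68 and 4.47 in control cells (2.88 ± 0.19). NPPB read 12.80 and 12.77 in rescue cells, 8.29 and 8.46 in depleted cells, and 9.45 and 11.23 in control cells (2.45 ± 0.51). The actin genes ACTA1 (2.89 ± 0.51) and ACTC1, the calponin CNN1 (2.39 ± 0.24) and the LIM protein CSRP1 (2.55 ± 0.28) rose too, whereas MYOCD, a coactivator of smooth and cardiac muscle genes, read 5.14 and 5.01 in rescue cells, 6.79 and 7.01 in depleted cells, and 7.49 and 8.32 in control cells (-2.83 ± 0.31). In depleted cells ACTA1 and ACTC1 also lay above control, by 3.229 and 1.849. The actin genes ACTA2 and ACTG2 lay above control there by 3.149 and 5.399, and were not called in rescue cells (adjusted p = 0.171 and 0.224). The median of the list in depleted cells was 0.42. The sarcomere genes MYH6, MYH7 and DES were not called.

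Some rises lay side by side on a chromosome, in runs chosen after their values were seen. In the protocadherin beta cluster of chromosome 5, whose members are cell surface adhesion genes, 16 of 18 measured genes were higher and 0 lower (median 1.37), against 6 higher and 2 lower among 40 flanking genes. PCDHB10 read 5.85 and 5.80 in rescue cells against 3.47 and 3.49 in control cells. Depleted cells had 2 of the 18 higher than control (median 0.21). These genes are similar in sequence, so their probe sets may share signal. On chromosome 7, 14 of 18 genes from POM121 to METTL27 were higher (median 0.89), against 6 of 40 flanking genes, and 8 were higher in depleted cells (median 0.29). On chromosome 9, 18 of 20 genes from SPTAN1 to IER5L were higher (median 0.88), against 3 of 40 flanking genes, and 13 were higher in depleted cells (median 0.67). LRRC8A, a subunit of volume-regulated anion channels in the chromosome 9 run, read 10.72 and 10.75 in rescue cells and 9.46 and 9.40 in control cells. Chromosomes 1 to 22 and X had, as a whole, medians between -0.005 and 0.106.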
